A study of Mus musculus with 14 samples.

Results

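Single mouse cloned embryos that had been cultured with vitamin C (VC) were compared with cloned embryos that had not. The embryos were taken by their titles alone. Of 14 embryos in the series, 8 had received VC in some window, with or without trichostatin A (TSA, a histone deacetylase inhibitor), and 6 had not. Each embryo had been made by somatic cell nuclear transfer (SCNT), in which the nucleus of a cumulus cell, the somatic cell that surrounds the oocyte, is placed into an enucleated oocyte. The whole series shared this donor cell type, activation in strontium chloride with cytochalasin B, culture in mKSOM with deionized bovine serum albumin, and collection at the 2-cell stage 28 h after nuclear transfer according to the labels.

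The 6 embryos without VC were 3 Control embryos and 3 TSA(0-8h) embryos, the latter with TSA at 50 nM from 0 to 8 h. The 8 VC embryos had VC at 10 µg/ml and comprised 1 VC(0-8h), 2 VC(8-15h), 2 TSA(0-8h)+VC(0-8h) and 3 TSA(0-8h)+VC(8-15h) embryos. Every library came from 1 embryo and was amplified from very little RNA, so the spread between embryos holds both biology and amplification, and the p-values below measure only that spread. Less RNA per cell and fewer copies of one transcript cannot be told apart in such data. The libraries had been sequenced in 3 pools. Pool 1 held 3 VC embryos and 2 without VC, pool 2 held 4 and 2, and pool 3 held 1 and 2. The comparison therefore carried TSA and pool as covariates. It also averages over 2 VC windows and over the presence of TSA, and the tests of those 2 differences are given at the end.

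VC reduces iron and so keeps Fe2+ and oxoglutarate dependent dioxygenases active. This enzyme class includes the Jumonji histone demethylases, the Tet enzymes that oxidize methylated cytosine, and the prolyl hydroxylases. VC is also an antioxidant. In the mouse, the 2-cell stage is when the embryonic genome starts to be transcribed on a large scale while the transcripts stored in the oocyte are degraded, and cloned embryos often start this incompletely.

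Between 3021540 and 13589389 reads were counted per embryo, with a median of 7339232 in embryos without VC and 7172470 in VC embryos. The VC coefficient of log2 reads was 0.15, with p = 0.519 in an exact two-sided permutation test that shuffled VC labels within embryos of the same TSA treatment and pool (smallest possible p 0.00926). The libraries all carried oocyte transcripts, while the level of 2-cell genes varied widely. Oocyte genes summed to between 4704 and 21330 RPKM (reads scaled to the length of an entry and to the total reads counted), and 2-cell genes to between 67.1 and 6371 RPKM. The lowest 2-cell sum was in an embryo without VC. A Dppa4 entry of 62 bases (NM_001018002) alone reached 4880 RPKM in an embryo without VC. Of 30 cumulus cell markers, 8 were at 0 in every embryo and 1 was high enough to be tested, with a summed level between 0.395 and 65.8 RPKM in VC embryos and between 0.301 and 144.3 RPKM in the others. VC(8-15h) replicate 2 had the fewest entries at 1 RPKM or more of all 14 embryos (3322). The entries detected, the mean level and the Omt2a difference are given with and without it.

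More RefSeq transcript entries were detected on average in VC embryos, with a difference that did not pass the exact test. Embryos without VC had between 3556 and 5439 entries at 1 RPKM or more (median 4224, mean 4410 ± 752, SD, n = 6). VC embryos had between 3322 and 6728 (median 5630, mean 5531 ± 1066, SD, n = 8). The ranges overlapped because of VC(8-15h) replicate 2 and because 2 Control embryos reached 5197 and 5439. The fitted difference was 1289 entries (p = 0.0741, exact permutation test). It was 1685 entries without VC(8-15h) replicate 2, with an exact permutation p of 0.0139, the smallest that the remaining embryos can give. The mean log2(RPKM + 1) over the entries tested moved in parallel, from a median of 2.94 in embryos without VC to 3.70 in VC embryos (VC coefficient 0.68, p = 0.0556, exact permutation test). That p fell to 0.0139 without VC(8-15h) replicate 2 and to 0.0417 without TSA(0-8h)+VC(0-8h) replicate 1 or without VC(0-8h) replicate 1, and rose to as much as 0.167 without TSA(0-8h) replicate 1 (exact permutation tests). For the entries detected, the exact permutation p likewise reached 0.167 without TSA(0-8h) replicate 1.

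**Figure D1:**
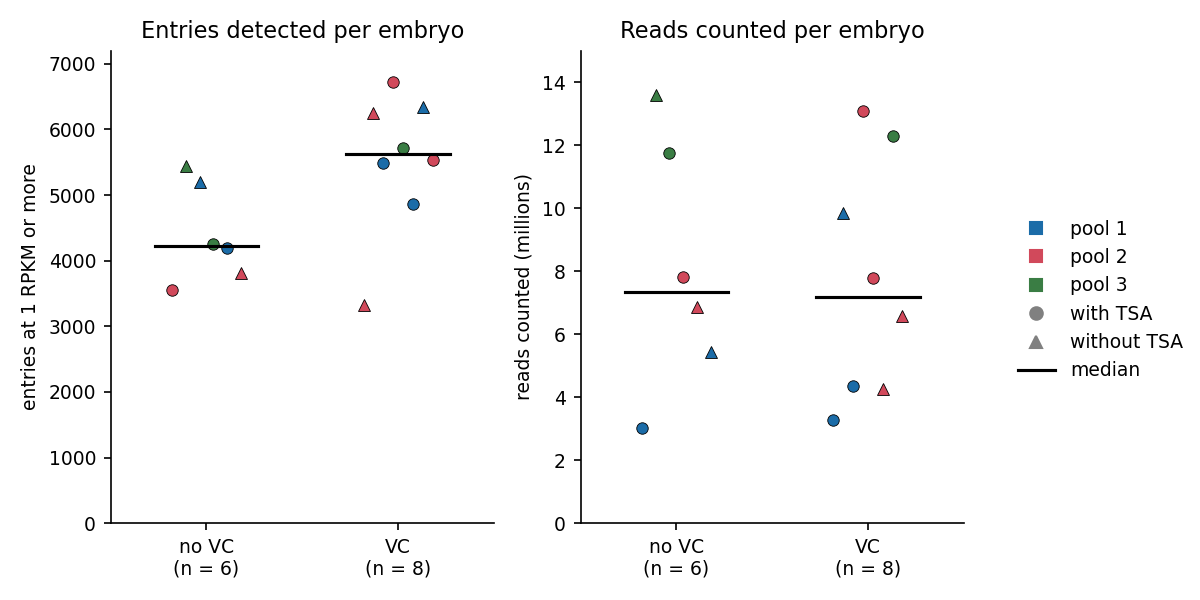
Left, the number of RefSeq entries at 1 RPKM or more in each embryo. Right, the reads counted in each embryo. Each point is 1 embryo, colour gives the library pool, shape gives TSA, and the bar is the group median. Of the VC embryos, 7 sit between 4864 and 6728 entries and 1 sits at 3322, while read totals spread over the same range in both groups.

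Across single transcripts, 4 of the 6106 entries tested passed an adjusted p of 0.05 in limma with Benjamini-Hochberg adjustment. They were 2 entries that were higher with VC (0.0328% of those tested) and 2 that were lower (0.0328%). At an unadjusted p under 0.05, 538 entries (8.81%) were higher with VC and 69 (1.13%) were lower. The median log2 difference over all entries was 0.68 (quartiles -0.21 and 1.60), and 69.8% of entries were higher with VC. The spread was wider than this shift, since the residual SD between embryos was 2.15 log2 units in the median entry. The median stood at 0.89 for entries with a mean log2 level of 2 to 4 and at -0.05 for those at 8 to 10. It was above 0 in each of the 5 combinations of TSA and pool that hold both kinds of embryo, between 0.25 and 1.56. Single entries that were higher with VC in all 5 of these combinations made up 10% of those tested, and those lower in all 5 made up 0.786%. An entry qualified by reaching 1 RPKM in 5 of the 14 embryos. On VC embryos alone, the larger group, 110 entries (1.8%) qualified, and 0 did on embryos without VC alone. What made this split was not tested. The direction of such an entry follows from how it qualified, also in the gene lists below.

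The broad shift depended on the scaling. Quantile normalization brought the median to 0.0042 with 240 entries higher and 175 lower at an unadjusted p under 0.05. Median-ratio scaling brought it to 0.05, with 219 higher and 247 lower. With the number of entries detected as a further covariate it was -0.02, with 332 higher and 179 lower. Differences of single genes below are therefore to be read against the 0.68 by which the median entry differed.

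**Figure D2:**
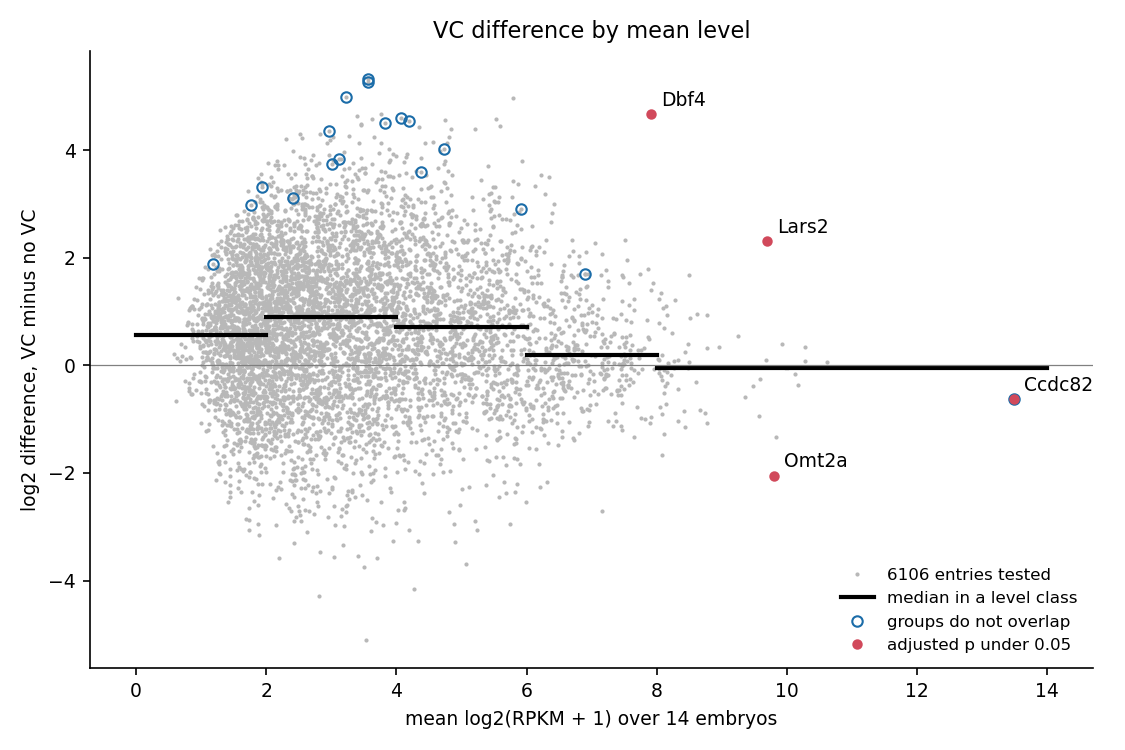
The log2 difference between VC embryos and embryos without VC (vertical axis) against the mean log2(RPKM + 1) over the 14 embryos (horizontal axis) for the 6106 entries tested. Black bars are medians within classes of mean level, blue rings are the 18 entries whose groups do not overlap, and red points are the 4 entries with an adjusted p under 0.05. The bars lie above 0 up to a mean level of 8 and near 0 above it.

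The most abundant entry in the data, Ccdc82 (NM_025534), which encodes a coiled-coil domain protein, was lower in every VC embryo than in any other embryo. Embryos without VC had between 12300 and 16600 RPKM (median 14800), and VC embryos between 7210 and 11800 RPKM (median 9020). The groups did not overlap, although the gap between the highest VC embryo and the lowest of the others was only 0.05 on the log2 scale. Ccdc82 fell by 0.63 (SE 0.10, adjusted p = 0.000258, limma). It was the single entry whose VC embryos all lay below the others (0.0164% of entries). The exact permutation test gave its smallest possible p of 0.00926. This p, like the exact permutation p-values of single entries below, was not adjusted for the number of entries. Bclaf1, Wdr36 and Sprtn had the same p of 0.00926 in that test without an adjusted call. Ccdc82 alone took 5.69 to 7.73% of the reads without VC and 3.35 to 5.48% with VC. With the number of entries detected as a further covariate the difference was still -0.63 (limma, adjusted p = 0.0552), and it was absent after quantile normalization, which gives the top entry of every embryo the same value.

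Omt2a (NM_001164523, chromosome 9, 78159779-78162604 in mm9) is an abundant oocyte transcript. It had between 341 and 6390 RPKM without VC (median 2240) and between 26.9 and 1480 RPKM with VC (median 713). The ranges overlapped, with Control replicate 1 as the lowest of its group and VC(8-15h) replicate 2 far below all others. The entry fell by 2.05 (SE 0.42, adjusted p = 0.0318, limma, exact permutation p = 0.0185) and was lower with VC in 4 of the 5 combinations of TSA and pool. Without VC(8-15h) replicate 2 the log2 difference was -1.60 (adjusted p = 0.0368, limma). The other Omt2a entry, NM_001111286, had a log2 difference of -1.07 (adjusted p = 0.515). The neighbouring related gene Omt2b had between 533 and 5030 RPKM without VC and between 139 and 1480 RPKM with VC, a log2 difference of -1.33 (SE 0.38) that did not pass adjustment (adjusted p = 0.208). Reads may be split between the Omt2 copies, so each single level is uncertain.

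Dbf4, the regulatory subunit of the Cdc7 kinase that fires replication origins, had 1 entry that was higher with VC. Entry NM_013726 (chromosome 5, 8396973-8422716 for the gene) had a median of 99.0 RPKM without VC and 1590 RPKM with VC, but the groups ran from 0 to 3490 RPKM and from 0 to 3430 RPKM. The log2 difference was 4.67 (SE 0.98, adjusted p = 0.0318, limma), whereas the exact permutation test on the same values gave p = 0.0926. This entry covers 46 bases, as recovered from the steps of its RPKM values. The entry that holds nearly all of the gene, NM_001190717 with 2441 bases, had a log2 difference of -0.20 (adjusted p = 0.932). The Dbf4 call therefore rests on a short stretch. Summed over its entries, the gene had a log2 difference of 1.60 (SE 0.44, adjusted p = 0.161, limma).

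Lars2 (NM_153168, chromosome 9, 123276058-123371782), the mitochondrial leucyl-tRNA synthetase, had between 23.1 and 2110 RPKM without VC (median 1010). VC embryos had between 430 and 2300 RPKM (median 1520). The groups overlapped over most of their range, and 2 TSA(0-8h) embryos at 23.1 and 74.8 RPKM set the lower end. The log2 difference was 2.31 (SE 0.50, adjusted p = 0.0348, limma), with VC higher in 3 of 5 combinations and an exact permutation p of 0.0741. Among embryos without TSA it was 0.22, and limma-voom on recovered reads gave -0.39. All 4 calls were lost (0 higher, 0 lower) without pool 1, without pool 2, without the mean-variance trend, and when the entries of a gene were summed. With 1 embryo left out, Ccdc82 stayed below an adjusted p of 0.05 in all 14 cases (limma, adjusted p at most 0.00696). Omt2a lost its call without TSA(0-8h) replicate 1, TSA(0-8h) replicate 2, Control replicate 2 or TSA(0-8h)+VC(8-15h) replicate 3. Dbf4 lost it without any 1 of the 3 TSA(0-8h) embryos, Control replicate 1, VC(8-15h) replicate 1 or TSA(0-8h)+VC(0-8h) replicate 2. Lars2 lost it without TSA(0-8h) replicate 1 or 2, either TSA(0-8h)+VC(0-8h) embryo, TSA(0-8h)+VC(8-15h) replicate 2 or VC(0-8h) replicate 1.

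**Figure D3:**
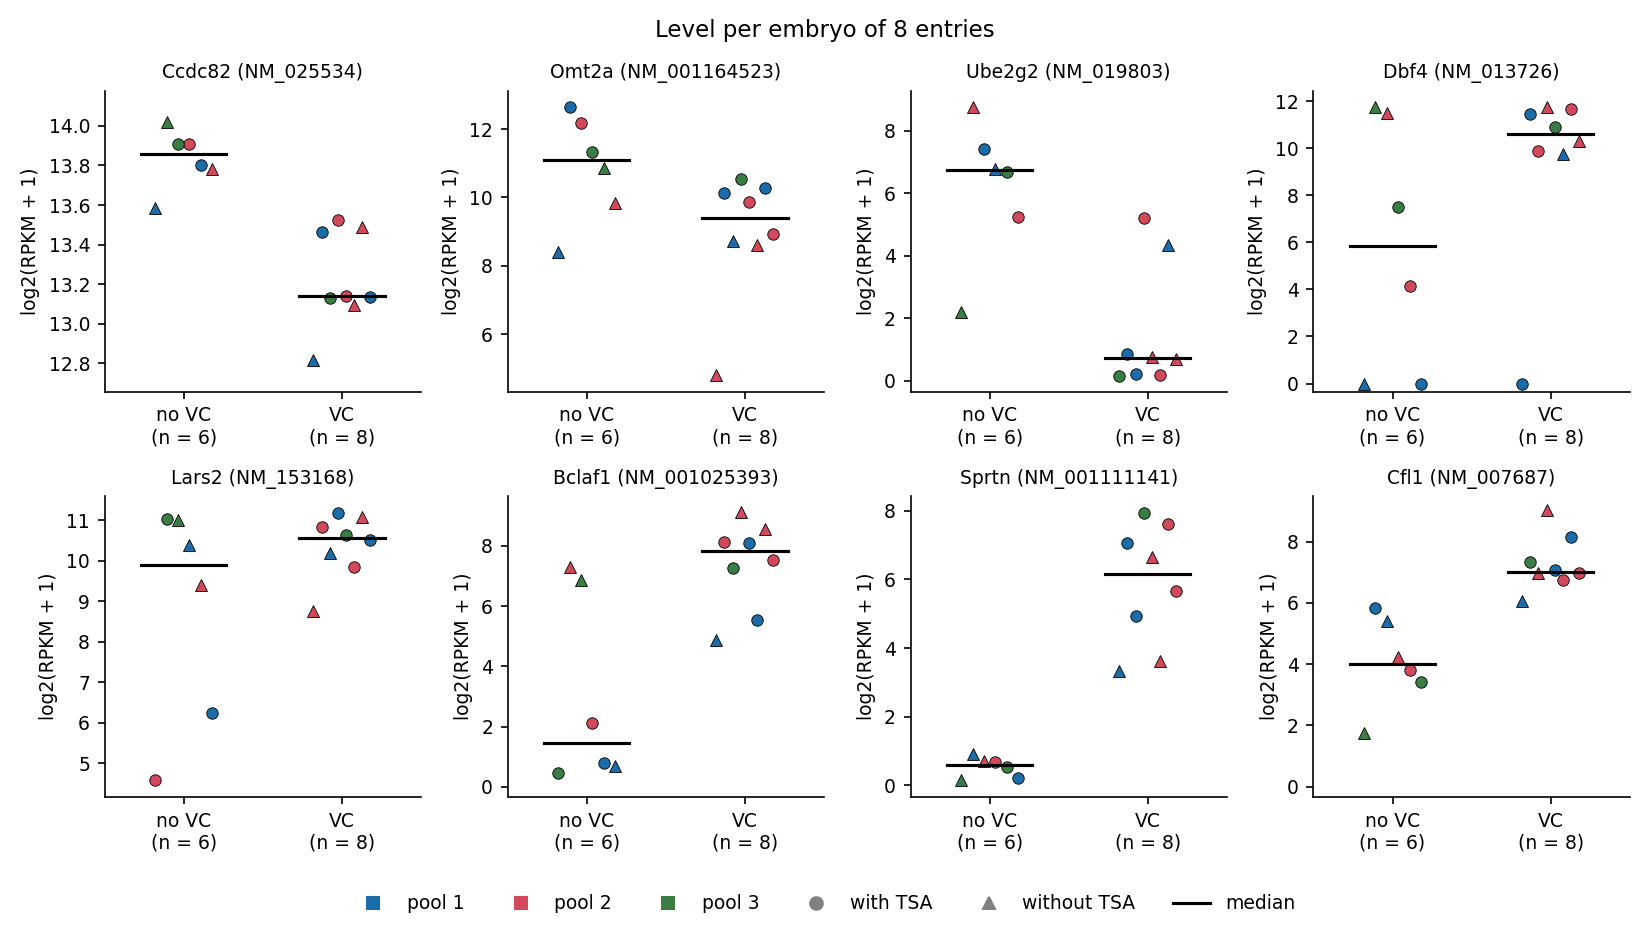
Level per embryo, as log2(RPKM + 1), of 8 entries in embryos without VC and with VC. Each point is 1 embryo, colour gives the pool, shape gives TSA, and the bar is the group median. Ccdc82, Sprtn and Cfl1 show no overlap, while Omt2a, Ube2g2, Dbf4, Lars2 and Bclaf1 overlap.

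The clearest separation was seen in transcripts that missed the adjusted threshold. For 17 entries (0.278%) every VC embryo was above every embryo without VC. They belong to 16 genes, because both Zfp1 entries hold the same reads. Of these 17, 3 (0.0491% of all entries) reached 1 RPKM in all 8 VC embryos and in none of the other 6, and 0 did the reverse. Except for Wdr36 and Sprtn, which are also among the 12 smallest p-values, these genes were named after their values were seen.

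Sprtn (NM_001111141, chromosome 8, 127421786-127427713), a protease that clears proteins crosslinked to DNA, was between 0.104 and 0.871 RPKM without VC. It was between 9.15 and 244 RPKM with VC (median 74.6). In reads, this is 1 to 11 per embryo without VC against 159 to 6340 with VC. The log2 difference was 5.27 (SE 1.31, adjusted p = 0.116, limma). The 2 VC(8-15h) embryos had the lowest levels among VC embryos, 9.15 and 11.4 RPKM, and TSA(0-8h)+VC(8-15h) replicate 3 the highest.

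Tmed4, of the p24 family of secretory cargo carriers, also reached 1 RPKM in VC embryos alone. It was between 0.0453 and 0.628 RPKM without VC and between 2.02 and 163.4 RPKM with VC.

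Among the other separated genes, Polr1c, a subunit shared by RNA polymerases I and III, was at or under 6.59 RPKM without VC and at or over 20.6 RPKM with VC. Supt5, a transcription elongation factor, reached at most 28.6 RPKM without VC and at least 28.9 RPKM with VC. Med14, of the Mediator complex, reached at most 18.9 RPKM without VC and at least 32.0 RPKM with VC. Cfl1, the actin-severing protein cofilin, had between 2.36 and 55.9 RPKM without VC and between 65.2 and 521.3 RPKM with VC. Prps1l3, Wdtc1, Tmem68, Rwdd1, Cux2 and Zfp1 were also among them, as were 3 ribosome assembly genes. The log2 differences of the 17 entries ran from 1.69 to 5.32. Their direction follows from how they were found, and such an entry could pass the filter on low values through its VC embryos alone.

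Those 3 ribosome assembly genes, Wdr36, Tbl3 and Pwp2, encode subunits of one complex. UTP-B is a module of the small subunit processome, the particle that folds and cuts the ribosomal RNA precursor in the nucleolus. It has 6 subunits, and all 6 were looked at once 3 had stood out, so the list was chosen with these values known and its counts describe rather than test.

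Wdr36 (NM_144863) lay between 0.0853 and 3.22 RPKM without VC, with 5 of 6 embryos under 1 RPKM. It lay between 5.11 and 130 RPKM with VC (median 94.8), a log2 difference of 5.32 (SE 1.32, adjusted p = 0.116, limma), the largest of any entry tested. Tbl3 (NM_145396, chromosome 17, 24834894-24844605) lay between 0.0585 and 14.5 RPKM without VC and between 39.4 and 277.5 RPKM with VC (log2 difference 4.55, SE 1.21). Pwp2 (NM_029546) was the weakest of the 3, with at most 1.28 RPKM without VC and at least 1.44 RPKM with VC (log2 difference 3.11, SE 1.30).

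The remaining UTP-B subunits overlapped between the groups. Utp6 ran from 0.171 to 10.8 RPKM without VC (median 1.06) and from 0.396 to 106.3 RPKM with VC (median 37.8), a log2 difference of 3.21 (SE 1.40). Utp18 had a log2 difference of 1.93 (SE 1.37). Wdr3 had one of -0.04 (SE 1.44).

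**Figure D4:**
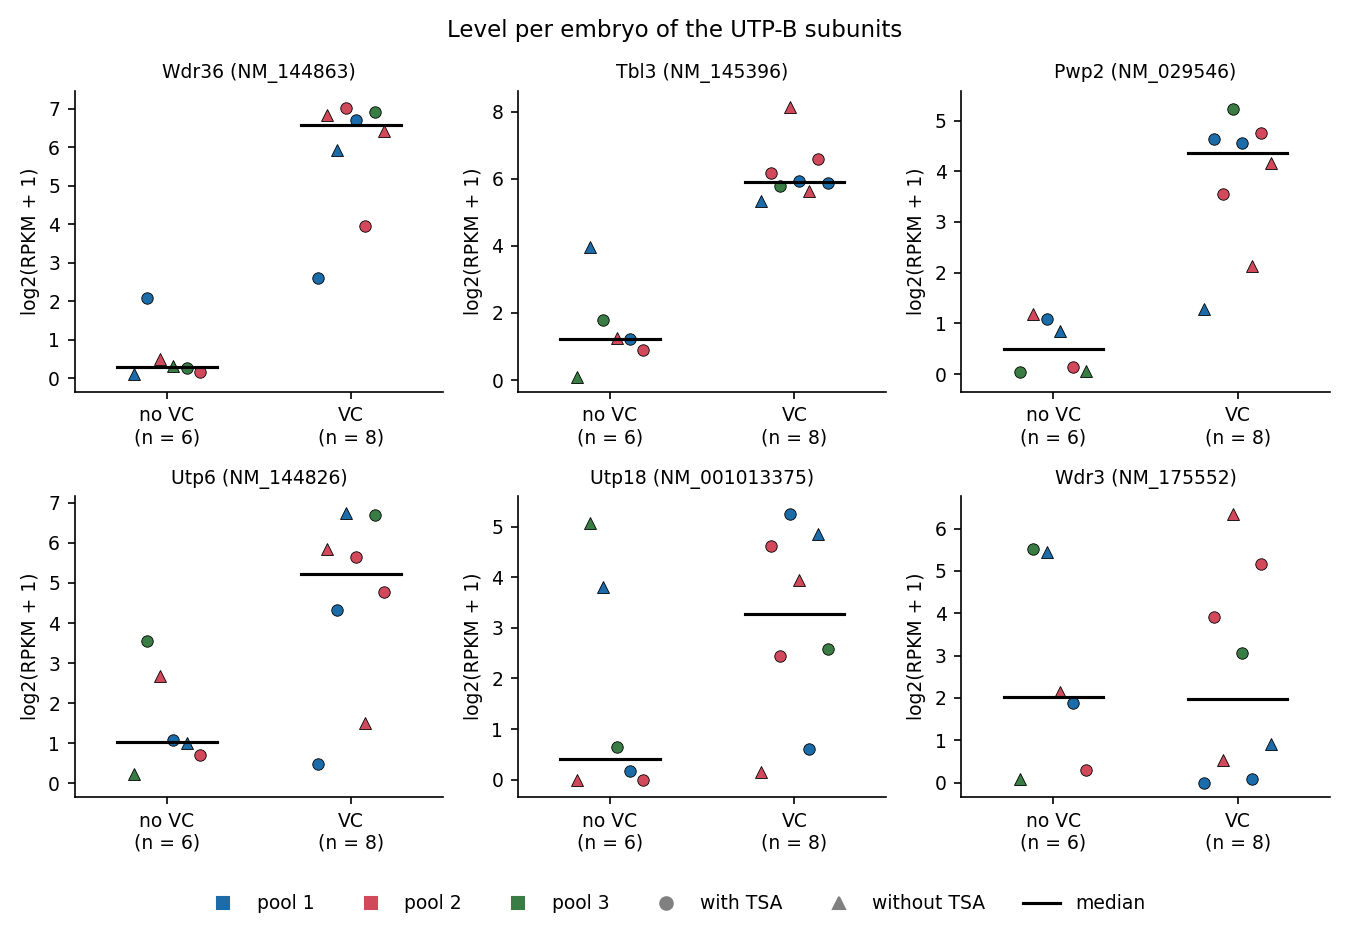
Level per embryo, as log2(RPKM + 1), of the 6 UTP-B subunits of the small subunit processome in embryos without VC and with VC. Points, colours, shapes and bars are as in the plot of named entries. Wdr36, Tbl3 and Pwp2 do not overlap between the groups, Utp6 and Utp18 overlap in part, and the medians of Wdr3 are alike.

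Over the whole processome list of 45 genes, 41 entries were tested. The list was added after values were seen and holds Wdr36, Tbl3 and Pwp2. Its counts and medians, in every setting, therefore describe rather than test. At an unadjusted p under 0.05, 11 were higher with VC and 0 lower, against 8.81% and 1.13% of all entries. The median log2 difference was 1.96 beside 0.68 for all entries. It stayed above the median of all entries under quantile normalization (1.14 beside 0.0042), median-ratio scaling (1.33 beside 0.05) and the covariate for entries detected (1.03 beside -0.02). The counts fell to 5 higher and 0 lower, 6 higher and 1 lower of 43 entries, and 8 higher and 0 lower in these settings. Utp11, Rrp7a, Utp4 and Nol6 followed Wdr36 and Tbl3 in it. Utp11, for example, was at or under 0.306 RPKM in all embryos without VC and had a median of 18.2 RPKM with VC, although the lowest VC embryo was at 0. Utp11 and Noc4l, both at that unadjusted p, passed the filter on low values through VC embryos alone. None of the 41 passed adjustment.

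The subunits of RNA polymerases I and III, which make ribosomal RNA and transfer RNA, were also listed after values of the list had been seen. Of 15 entries tested, 6 were higher with VC at an unadjusted p under 0.05 and 0 lower, beside 8.81% and 1.13% of all entries, and the median was 1.87. After quantile normalization and after median-ratio scaling 2 were higher, with medians of 0.96 and 1.59, and with the covariate for entries detected 5 were higher. Polr3g had between 0.278 and 48.9 RPKM without VC (median 4.37) and between 25.9 and 139.7 RPKM with VC (median 83.0), a log2 difference of 2.84 (SE 1.16). Polr1e, Polr3k and Polr1a had log2 differences of 2.83, 2.68 and 2.78. Polr3b and Polr3f lay on the other side of 0, at -1.18 and -0.37. For RNA polymerase II, 2 of 10 entries were higher at that p and the median was 1.28, which fell to -0.32 under median-ratio scaling.

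Cytoplasmic ribosomal protein genes had 13 of 67 entries higher at an unadjusted p under 0.05 and 0 lower, beside 8.81% and 1.13% of all entries, with a median of 1.02. Rpl9 had between 0.304 and 7.30 RPKM without VC and between 0.210 and 551 RPKM with VC, a log2 difference of 4.58 (SE 1.41, adjusted p = 0.327, limma). Rps13 had between 0.220 and 5.12 RPKM without VC and between 0.884 and 692 RPKM with VC, a log2 difference of 4.46 (SE 1.42). In both genes the ranges overlapped at their low end. The list had 8 entries higher and 0 lower after quantile normalization (median 0.47), 7 and 3 after median-ratio scaling (median 0.40), and 11 and 2 with the covariate for entries detected (median 0.60).

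Splicing factors had 11 of 47 entries higher at the same p, 0 lower and a median of 1.28, beside 8.81% and 1.13% of all entries. After quantile normalization 7 were higher (median 0.70), after median-ratio scaling 4 of 46 (median 0.51) and with the covariate for entries detected 6 (median 0.94). Among the 11 were Snrpd3, Snrpd2, Snrpe, Eftud2 and Ddx39b, which were under 1 RPKM in every embryo without VC. They passed the filter on VC embryos alone, as 1.8% of all entries did, so their direction follows from the filter. Snrpd3, a core protein of the spliceosomal particles, was at or under 0.965 RPKM in the 6 embryos without VC and reached 493 RPKM with VC (median 22.5, log2 difference 4.29, SE 1.36). U2af1, which recognizes the end of introns, had a median of 0.788 RPKM without VC and 51.0 RPKM with VC, a log2 difference of 3.53 (SE 1.22). Translation initiation factors had 6 of 45 entries higher and 1 lower, with a median of 0.90 that became -0.02 under median-ratio scaling. Proteasome subunits had 5 of 30 higher and 0 lower, with a median of 0.91 that became -0.05 with the covariate for entries detected.

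Among histone demethylases, for which VC is a cofactor, 2 of 19 tested entries were higher with VC at an unadjusted p under 0.05, 0 were lower, and the median was 1.07. The shares are close to those of all entries, and none passed adjustment. Phf8 (NM_177201), which removes methyl groups from histone H3 lysine 9 and histone H4 lysine 20, had between 0.177 and 33.7 RPKM without VC (median 3.18). It had between 8.14 and 147 RPKM with VC (median 88.9), and Control replicate 3 and TSA(0-8h) replicate 3, both of pool 3, reached into that range. The log2 difference was 3.86 (SE 1.20, adjusted p = 0.327, limma), while its other entry, NM_001113354, had 1.33 (SE 1.43). Kdm5a, an H3 lysine 4 demethylase, had a median of 1.12 RPKM without VC and 31.4 RPKM with VC (log2 difference 3.18, SE 1.37).

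The other demethylases had an unadjusted p over 0.05. Kdm3b had a median of 0.0987 RPKM without VC and 10.4 RPKM with VC (2.30, SE 1.30), and Kdm4a one of 17.0 and 61.5 RPKM (2.02, SE 1.19). Kdm5b, the most abundant in VC embryos after an isoform of Kdm3a, had medians of 90.1 and 121 RPKM (1.07, SE 0.91). Jmjd6 went the other way, with medians of 22.2 RPKM without VC and 0.146 RPKM with VC (-2.47, SE 1.34). After quantile normalization the list had 1 entry higher and 1 lower at an unadjusted p under 0.05 and a median of 0.29.

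At an unadjusted p under 0.05, 8.81% of all entries were higher and 1.13% lower. Of the dioxygenases that act on nucleic acids, Alkbh1 was the single entry of 5 at that p. It had between 0 and 2.17 RPKM without VC and between 1.39 and 158 RPKM with VC (median 10.1), a log2 difference of 3.25 (SE 1.35). Tet3, the Tet enzyme of the zygote, had medians of 46.6 RPKM without VC and 43.8 RPKM with VC and a log2 difference of 0.54 (SE 0.99). Tet1 stood at 0.517 and 11.9 RPKM (2.16, SE 1.31). Protein hydroxylases had 7 entries tested and 0 at that p, with a median of 0.30 that became -0.12 after quantile normalization and -0.40 after median-ratio scaling.

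Genes that carry or recycle VC itself were mostly low. Of 13 listed genes, 4 had an entry tested and 0 had an unadjusted p under 0.05. Slc23a2, a sodium-coupled VC transporter, had between 0.052 and 46.1 RPKM without VC (median 0.359) and between 0.0956 and 30.6 RPKM with VC (median 9.10), a log2 difference of 1.85 (SE 1.26). Slc2a3, a transporter of glucose and of oxidized VC, had 2.08 (SE 1.43). Iron handling genes had 1 of 15 entries at that p, beside 8.81% higher and 1.13% lower among all entries. This was the iron importer Slc11a2, at or under 0.227 RPKM without VC and with a median of 13.1 RPKM with VC (3.04, SE 1.17). It passed the filter on VC embryos alone, so its direction follows from the filter. The other Slc11a2 entry tested had 1.13 (SE 0.89), with an unadjusted p over 0.05.

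Antioxidant genes split in both directions, with a median of 0.66 close to that of all entries and below 0 under the other settings (-0.31 after quantile normalization). Gclc, the rate-limiting enzyme of glutathione synthesis, had between 0.215 and 3.92 RPKM without VC and between 0.268 and 143 RPKM with VC (median 41.8), a log2 difference of 3.91 (SE 1.40, adjusted p = 0.400, limma). Prdx2, a peroxiredoxin that reduces hydrogen peroxide, had between 250 and 1220 RPKM without VC (median 381) and between 13.9 and 783 RPKM with VC (median 235), a log2 difference of -1.66 (SE 0.63, adjusted p = 0.429). The other 14 entries had an unadjusted p over 0.05.

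Among genes that set repressive chromatin, few entries had a small p and none passed adjustment. Of all entries tested, 8.81% were higher and 1.13% lower at an unadjusted p under 0.05. H3K9 methyltransferases and readers had 0 of 10 entries at an unadjusted p under 0.05 and a median of 0.45, which was -0.18 under median-ratio scaling and -0.50 with the covariate for entries detected. For DNA methylation 1 of 7 entries passed that p, Mbd3 of the NuRD complex, with a median of 0.184 RPKM without VC and 30.1 RPKM with VC (3.22, SE 1.38). Dnmt1, the maintenance methyltransferase, had 0.43 (SE 1.15). Histone deacetylases had 1 of 6, the deacetylase Sirt1 (2.55, SE 1.17), and a median of 0.25 that changed sign under quantile and median-ratio scaling.

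Genes of the 2-cell stage had 5 of 24 entries higher at an unadjusted p under 0.05 and 0 lower, beside 8.81% and 1.13% of all entries, with a median of 1.39. The counts were 5 higher and 1 lower after quantile normalization (median 0.78), 4 and 2 after median-ratio scaling, and 4 and 1 with the covariate for entries detected. Sp110 (NM_175397) had between 2.05 and 427 RPKM without VC (median 4.14) and between 2.19 and 1530 RPKM with VC (median 812), a log2 difference of 4.97 (SE 1.20, adjusted p = 0.116, limma). This entry covers 208 bases, and the longer Sp110 entry, NM_030194, had 1.11 (SE 0.57, adjusted p = 0.514). Tdpoz1 and Tdpoz4, of a family of BTB domain genes transcribed in early embryos, had 3.75 (SE 1.39) and 3.26 (SE 1.31), and Tcstv3 had 3.74 (SE 1.42). The members of these families are near-identical, so reads may be split between copies.

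Of the 24 entries of 2-cell genes, 20 were higher with VC, beside 69.8% of all entries. The count was 16 after quantile normalization (3066 of 6106 for all entries) and 16 after median-ratio scaling (3089 of 6000). With the covariate for entries detected it was 14 (3021 of 6106). Usp17lb was among the 20, at 3.64 (SE 1.5). Differences were small or negative for the abundant genes Zfp352 and Dppa2. Zfp352 had medians of 130 RPKM without VC and 45.9 RPKM with VC (0.11, SE 1.21), and Dppa2 112 and 102 RPKM (-1.34, SE 1.06). Regulators of genome activation had 3 of 25 entries higher and 0 lower at that p, with a median of 1.12, a share close to the 8.81% of all entries. They had 2 higher and 0 lower after quantile normalization (median 0.40), 0 and 1 of 23 after median-ratio scaling (0.59), and 2 and 1 with the covariate for entries detected (0.50). Klf17 had between 3.81 and 90.0 RPKM without VC (median 54.7) and between 40.4 and 231 RPKM with VC (median 121), higher with VC in 5 of 5 combinations of TSA and pool (1.83, SE 0.89). Trim43a, a TRIM family gene of the preimplantation embryo, had between 1.35 and 157 RPKM without VC and between 98.1 and 449 RPKM with VC, a log2 difference of 3.50 (SE 0.88, adjusted p = 0.118, limma).

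The oocyte gene list did not show the shift of the median entry. Of 36 entries, 18 were higher with VC, beside 69.8% of all entries, and the median was -0.04 beside 0.68. The shift was smaller at high levels for all entries, with medians of 0.185 at a mean log2 level of 6 to 8 and -0.05 above 8. Omt2a, Omt2b, Zbed3, Oog3, Btg4 and Bmp15 are oocyte genes with entries above 8. Whether oocyte genes differ from other entries of the same level was not tested. At an unadjusted p under 0.05, 2 were higher and 2 lower, beside 8.81% and 1.13% of all entries. The other settings gave more entries on the lower side, with 0 higher and 4 lower at that p after quantile normalization, 0 and 10 of 37 after median-ratio scaling, and 1 and 7 with the covariate for entries detected. The summed level of all listed oocyte genes lay between 6162 and 21330 RPKM without VC (median 11250) and between 4704 and 8534 RPKM with VC (median 6988). Abundant entries weigh most in this sum. In TSA(0-8h) replicate 1, for example, Omt2a (NM_001164523) and Omt2b were at 6390 and 5030 RPKM. The lower pair was Omt2a and Omt2b, and the higher pair was Bcl2l10 (2.10, SE 0.92) and Lin28a (2.05, SE 0.92). Zbed3, an abundant maternal transcript, had medians of 1140 and 1240 RPKM and a log2 difference of -0.36 (SE 0.33). Apoptosis genes had 2 of 18 entries higher and 0 lower at that p, beside 8.81% and 1.13% of all entries. The 2 were Mcl1 and Bcl2l10, both of which restrain cell death. The apoptosis list median was 0.54 and changed sign under all 3 of the other settings. At that p, 0 apoptosis entries were higher and 2 lower after quantile normalization and after median-ratio scaling. With the covariate for entries detected, 1 was higher and 0 lower.

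Further entries with small p-values and no adjusted call included Bclaf1 and Atf4 on the higher side. Bclaf1 (NM_001025393), a Bcl2-associated transcription regulator, had a median of 2.06 RPKM without VC and 230 RPKM with VC. Its log2 difference was 4.57 (SE 1.05, adjusted p = 0.0823, limma), higher in 5 of 5 combinations, while its longer entry, NM_153787, had 1.25 (adjusted p = 0.691). Atf4, the transcription factor of the integrated stress response, had medians of 10.2 and 196 RPKM (3.80, SE 0.94, adjusted p = 0.116). Rimklb, Fam53c and D030056L22Rik had log2 differences of 3.34, 3.53 and 4.40.

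On the lower side, Ube2g2, a ubiquitin-conjugating enzyme for misfolded proteins of the endoplasmic reticulum, was at 1 RPKM or more in 6 of 6 embryos without VC and in 2 of 8 with VC. Its median was 105 RPKM without VC and 0.662 RPKM with VC, a log2 difference of -5.10 (SE 1.38, adjusted p = 0.157, limma). Hpf1, a partner of Parp1 in DNA damage signalling, had between 118 and 1100 RPKM without VC and between 0.772 and 355 RPKM with VC (-2.71, SE 0.77, adjusted p = 0.208). Both were lower in each of the 5 combinations of TSA and pool, as were AI987944, Arrdc3, Lrrfip2 and Tlcd2. Rsrc2, Ybx3 and Slc25a3 complete the 12 and were lower in 4 of 5.

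**Figure D5:**
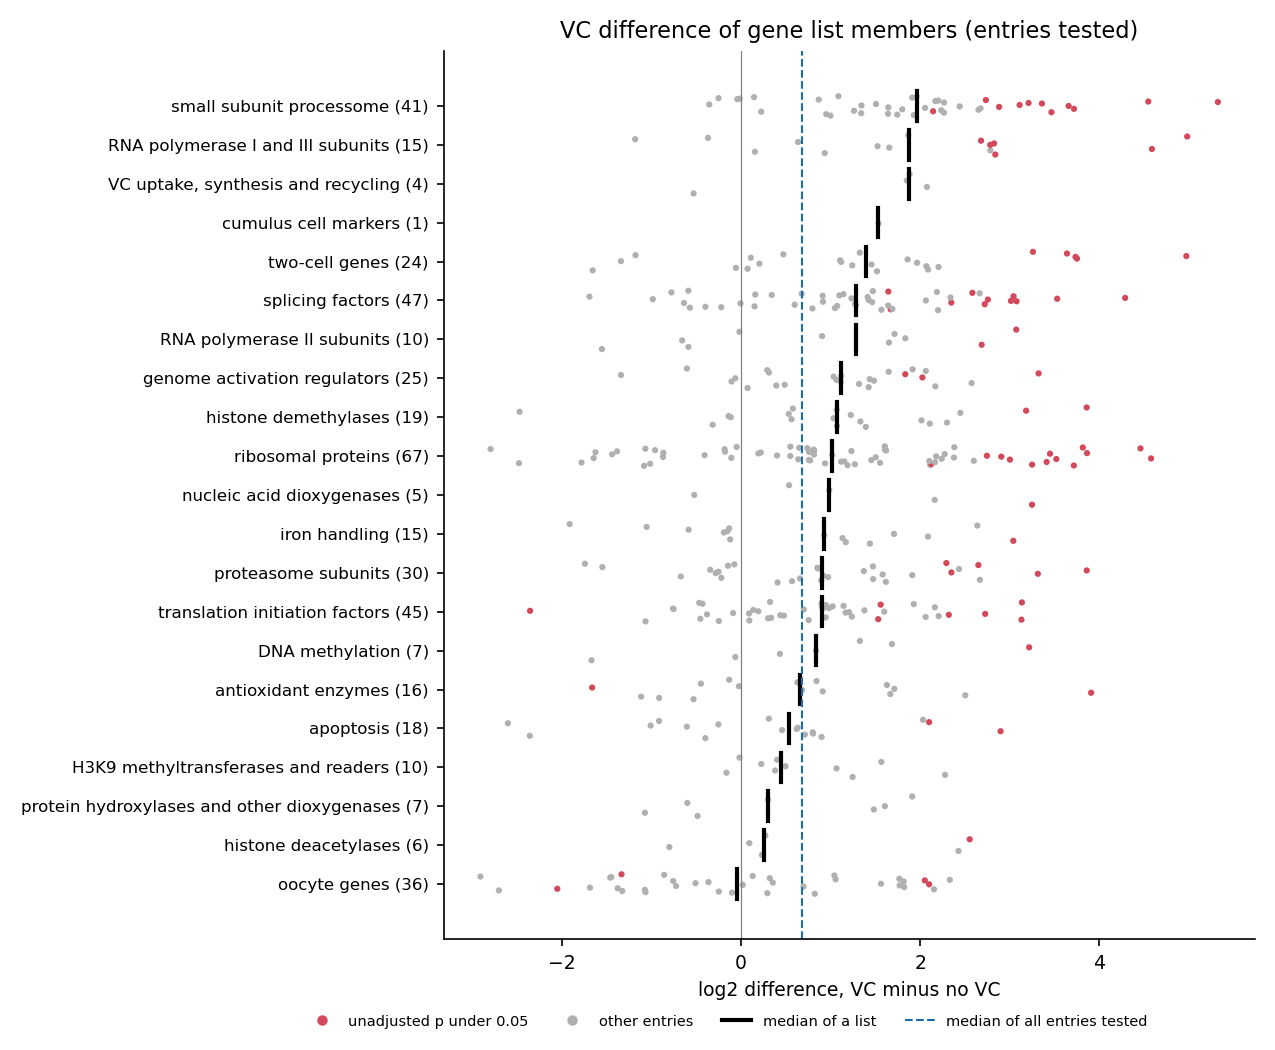
Log2 difference between VC embryos and embryos without VC of each tested entry of 21 gene lists, with the number of entries in parentheses. Each point is 1 entry, red where the unadjusted limma p is under 0.05, the black bar is the list median and the dashed line is the median of all entries tested (0.68). The processome list and the list of RNA polymerase I and III subunits were added after values were seen. The processome list has the highest median, 1.96, and oocyte genes the lowest, -0.04.

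Whether the VC difference depended on TSA was tested as an interaction. Of 6106 entries, 0 passed adjustment in either direction (limma, Benjamini-Hochberg). At an unadjusted p under 0.05, the VC difference was more positive in TSA-treated embryos for 215 entries (3.52%) and more negative for fewer (1.77%). The lowest p belonged to the histone gene H2bc12. It had 655, 885 and 826 RPKM in Control embryos and 98.2, 148 and 2.00 RPKM in embryos with VC alone, but 6.08, 0.672 and 12.5 RPKM with TSA alone and between 10.8 and 551 RPKM with both. The interaction was 8.28 (adjusted p = 0.190). Ptma, prothymosin alpha, ran the other way, with 39.9 to 172 RPKM in Control embryos and 927 to 1680 RPKM with TSA alone, and an interaction of -3.79 (adjusted p = 0.357). Over all embryos the VC differences of these genes were 1.18 (SE 1.10) and -0.06 (SE 0.55).

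Whether the window mattered was tested between the 5 late VC embryos (8-15h) and the 3 early ones (0-8h). In limma, 0 entries were higher with late VC and 1 was lower (0.0164%) at an adjusted p under 0.05. The unadjusted counts were 52 (0.852%) and 185 (3.03%). Zfp57 (NM_001013745), a zinc finger protein that protects imprinted methylation, had 871, 2360 and 719 RPKM in the early VC embryos. It had 395, 2.41, 297, 2.54 and 50.9 RPKM in the late ones, so these groups did not overlap. Late minus early was -5.86 (adjusted p = 0.0201). The call was lost without any 1 of the early VC embryos, and without TSA(0-8h)+VC(8-15h) replicate 2, VC(8-15h) replicate 2 or Control replicate 3 (adjusted p from 0.0551 to 0.446, limma). Embryos without VC ran from 4.03 to 910 RPKM, and over all VC embryos against the rest the log2 difference was -0.54 (SE 1.02). This entry covers 253 bases. The similar short entry NM_001168501 had -6.34 (adjusted p = 0.0637), and the longest, NM_001168502 with 2088 bases, had -1.75 (adjusted p = 0.994).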

How the data were processed

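RNA from single 2-cell SCNT embryos was amplified, sequenced in 3 pools and aligned by the authors to mm9 with TopHat2 (the submitters' processing notes). The authors deposited 1 file of RPKM values per embryo for 25650 RefSeq entries, of which 25250 carry a symbol. The version of the aligner is not given in the sources used here. RPKM is relative to the reads counted, so no interval for a single value was drawn.

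Reads and entry lengths were recovered from the RPKM steps for 14531 of 14532 entries above 0 in at least 2 embryos (tolerance 1e-05 reads). Over 1 kb, 3 reads correspond to between 0.221 and 0.993 RPKM, counting error only. Entries at 1 RPKM or more in at least 5 of 14 embryos (6106) were tested on the log2(RPKM + 1) scale by limma 3.58.1 (R 4.3.3). The model held VC, TSA and pool, a mean-variance trend and two-sided Benjamini-Hochberg adjusted p-values. Fold changes on this scale understate those of low entries. Of the entries tested, 123 (2.02%) cover under 200 bases. Per-embryo values were tested by exact permutation in Python 3.11.15. The fit was tested on simulated data. Gene positions come from the GENCODE vM1 annotation of the same build, and 0 columns of other samples were found.

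Named are the 12 genes with the smallest p in each direction, up to 4 members at an unadjusted p under 0.05 per list (19 lists), Kdm3b, Kdm5b and Tet3 (Kdm4b and Kdm4d were too low to be tested), the 3 extreme genes of the TSA and window tests, and abundant markers. The result for 1 named gene is not reported here. The comparison, its members and the lists were chosen with earlier results of these data known. The alternatives tried are those given under the dependence on processing. The processome and polymerase lists were added after the values were seen.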

Additional observations from a re-analysis of the deposited data

Results flagged for a closer look

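Single embryos stood apart from their group in 7 of 56 checks of the gap to the nearest embryo, made on read totals, entries detected, mean level, the Ccdc82 share and 24 named entries in the VC embryos and in the others. Chance alone gives about 1 in 20. Among VC embryos, TSA(0-8h)+VC(0-8h) replicate 1 had Dbf4 (NM_013726) at 0 RPKM. VC(8-15h) replicate 2, the embryo with the fewest entries detected, was far below the other VC embryos for Omt2a (26.9 RPKM) and Hpf1 (0.772 RPKM). Among embryos without VC, Control replicate 3 was far above the rest for Sp110 (NM_175397, 427.4 RPKM) and far below for Arrdc3 (0.054 RPKM). TSA(0-8h) replicate 1 was the only one of its group above 1 RPKM for Wdr36 (3.22 RPKM), and TSA(0-8h) replicate 3 was the lowest for Ybx3 (8.28 RPKM).

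The VC window made a tested difference for 1 entry, Zfp57 (NM_001013745), with a late minus early log2 difference of -5.86 (adjusted p = 0.0201, limma).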

How the results depend on the processing

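The 4 adjusted calls (2 higher and 2 lower with VC, limma) were sensitive to most settings. The counts were 0 higher and 0 lower under quantile normalization, with no filter on low values, without the mean-variance trend, in embryos without TSA, with entries of a gene summed, and without pool 1 or pool 2. With no filter, the 608 entries higher and 129 lower at an unadjusted p under 0.05 compare with 538 and 69. With 0 higher, the lower count was 2 under median-ratio scaling and without the pool term, and 1 with a filter of 1 RPKM in 8 embryos, without the TSA term and with the number of entries detected as covariate. It was 1 higher and 2 lower with a pseudocount of 0.1, with late VC embryos alone and without entries under 200 bases. It was 1 and 1 in TSA-treated embryos, 1 and 0 with early VC embryos alone, and 4 and 1 with array weights. limma-voom on recovered reads called 2 and 2, of which only Ccdc82 was among the 4. Pools left out and short entries were chosen after seeing the data. The cause of these changes was not tested.

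Leaving out 1 embryo gave 0 to 6 higher and 1 to 2 lower. It was 6 higher without VC(8-15h) replicate 2, 4 without Control replicate 2 or Control replicate 3, and 0 without TSA(0-8h) replicate 2 or TSA(0-8h)+VC(0-8h) replicate 2. It was 1 higher without Control replicate 1, TSA(0-8h) replicate 1, TSA(0-8h) replicate 3, TSA(0-8h)+VC(8-15h) replicate 2 or VC(0-8h) replicate 1. The lower count was 1 without TSA(0-8h) replicate 1, TSA(0-8h) replicate 2, Control replicate 2 or TSA(0-8h)+VC(8-15h) replicate 3. Unadjusted counts ranged from 392 to 698 higher and from 50 to 93 lower, and the median log2 difference from 0.59 to 0.86. It was -0.024 with the number of entries as covariate. Lars2 was at -0.39 in limma-voom. The difference in entries detected ranged from 1117 to 1685, in mean log2 level from 0.60 to 0.87, and in log2 reads from -0.094 (without VC(8-15h) replicate 1; -0.026 without TSA(0-8h) replicate 1) to 0.31.

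The TSA interaction gave 0 to 4 higher calls with 1 embryo left out (4 without TSA(0-8h) replicate 3; 1 without TSA(0-8h)+VC(8-15h) replicate 2, VC(0-8h) replicate 1 or Control replicate 3) and 0 lower, with 129 to 262 higher and 75 to 161 lower unadjusted. Its median log2 difference of 0.43 was -0.0384 under quantile normalization and ranged from -0.020 (without VC(8-15h) replicate 2) to 0.76. Late minus early VC gave 0 to 2 lower calls and 0 higher, with 33 to 86 higher and 126 to 281 lower unadjusted. It was 0 without TSA(0-8h)+VC(0-8h) replicate 1, TSA(0-8h)+VC(8-15h) replicate 2, VC(8-15h) replicate 2 or Control replicate 3. The median of -0.32 ranged from -0.91 to -0.02 and was 0.0064 under quantile normalization.

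Replicate numbers did not pair the embryos, since deviations of same-numbered embryos correlated by 0.04 on average (-0.0024 to 0.10). With a replicate block in place of pool there were 3 higher and 2 lower calls for VC, 1 higher call for the interaction and 0 lower calls for the window, and the difference in entries detected was 1206 (p = 0.0185, exact permutation test).

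Depth limits low entries, where 3 reads over 1 kb stand for up to 0.993 RPKM. With a median residual SD of 2.15 log2 units, a difference of the size of the median shift did not pass for an entry of typical spread.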
